A study of Mus musculus with 6 samples.

Results

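A set of 37 mouse genes of meiosis and the germline was examined in embryonic stem (ES) cells that lacked HP1 alpha and HP1 beta. The genes were chosen by name, as a list of synaptonemal complex, chromosome axis, recombination, telomere attachment and germ cell genes. The list itself sets no measured value as a criterion, but it was drawn up with earlier results of these data known, so a count of its members is not independent of the data. All 37 were found among the 24467 genes of the deposited count table, matched by Entrez gene ID. RNA was sequenced from 6 libraries in 3 groups of 2. The groups were clone 1 and clone 2 of the double knockout (DKO) of Cbx5, which encodes HP1 alpha, and Cbx1, which encodes HP1 beta, and 1 control clone. The control is titled F/F, the usual shorthand for homozygous floxed alleles, and its genotype is given as WT. All groups, the control included, were grown with leukaemia inhibitory factor, knockout serum replacement and kinase inhibitors, 3 µM of the GSK3 inhibitor CHIR99021 with 0.8 µM of the MEK inhibitor PD184352, and none was treated otherwise. Whether replicates of a clone are separate cultures is not stated, so the p-values measure only the spread between these libraries, which may be technical. With 1 control clone, an effect of the genotype and a difference between clones cannot be told apart.

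Meiosis pairs the homologous chromosomes, breaks and repairs their DNA so that crossovers form, and holds the paired axes together with a zipper of proteins, the synaptonemal complex. ES cells do not enter meiosis, but they hold low levels of RNA from many of these genes. In ES cells a number of germline promoters are known to be kept low by DNA methylation, by histone H3 lysine 9 methyltransferases and by a Polycomb complex that contains E2F6, MGA and MAX, whose DNA partners bind E2F sites and E-boxes. HP1 proteins recognise this lysine 9 methylation and are a structural part of heterochromatin.

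The DKO clone 1 libraries held 27876620 and 27822664 reads on genes, the DKO clone 2 libraries 24628872 and 26772203, and the control libraries 34641560 and 32327537. Levels are given as CPM, read counts scaled to a common library size after TMM correction, and 3 reads, the limit that a count of 0 allows, equal 0.0873 to 0.12 CPM by library, for counting error only. Cbx5 averaged 198 ± 6.58 CPM in DKO libraries (SD, n = 4) and 811 ± 2.96 CPM in control libraries (SD, n = 2). Cbx1 averaged 45.7 ± 2.44 CPM in DKO libraries (SD, n = 4) and 225 ± 2.88 CPM in control libraries (SD, n = 2). The sources used here do not name the deleted exons, and a count can also cover exons outside the deleted part. The summed level of 10 ES cell markers was 4511 to 4867 CPM in DKO libraries and 4524 to 4797 CPM in control libraries, with Nanog higher (log2 change 0.33, edgeR adjusted p 0.0281) and Tdgf1 lower (-0.28, 0.0415) in DKO. Over all tested genes of chromosome 6 the median log2 change in DKO was 0.48, and over those of chromosome 3 it was 0.18, while the other chromosomes that hold a tested member had medians between -0.07 and 0.

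Per length of the gene, the members were expressed over a wide range. In RPKM, which divides CPM by the deposited gene width in kilobases, 4 of the 37 members averaged 10 or more in DKO libraries and 9 did so in control libraries. Hormad1 had the highest level in both, at 46.8 ± 8.5 RPKM in DKO (SD, n = 4) and 56.6 ± 3.82 RPKM in control (SD, n = 2). Syce2 followed, at 21.3 ± 1.69 RPKM in DKO and 26.9 ± 3.26 RPKM in control. In the middle of the range stood Tex15, at 6.79 ± 0.555 RPKM in DKO and 11.9 ± 0.392 RPKM in control, and Sycp1, at 2.5 ± 0.344 RPKM in DKO and 6.82 ± 0.216 RPKM in control. A further 18 members averaged less than 1 RPKM in DKO libraries, and 16 did so in control libraries. A filter on low counts left 32 members for the test, and Syce3, Spo11, Mei1, Rnf212 and Figla were not tested. Rnf212 had 0 reads in all 6 libraries. Spo11 and Mei1 had 2 reads in 1 control library each and 0 elsewhere, Figla had 2 reads in DKO clone 2 replicate 2 and 2 in control replicate 1, and Syce3 had 3 to 7 reads in each library. A difference in these 5 genes was not detectable at this depth. In bulk RNA, fewer cells that express a gene and less RNA per cell cannot be told apart.

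Promoter sequences are given for 4 of the 5 members that were lower in both DKO clones, all but Tex15, for a closely related copy of one of them, and for a cohesin gene that was higher in clone 2, because these genes carry the results below. Each line is the RefSeq window on GRCm38.p6 from 250 bases before to 50 bases after an annotated transcription start, written 5′ to 3′ along the gene. Capitals mark matches to the E2F core TTCCCGC or the E-box CACGTG, which were searched on both strands. The windows lie at chr3:102936051-102936350, minus strand for Sycp1, at chr6:34920698-34920997, plus strand for Stra8, at chrX:134476441-134476740, minus strand for Taf7l, at chr6:125286032-125286331, minus strand for Tuba3a, at chr6:145615713-145616012, plus strand for Tuba3b and at chr15:85131908-85132207, minus strand for Smc1b.
Sycp1: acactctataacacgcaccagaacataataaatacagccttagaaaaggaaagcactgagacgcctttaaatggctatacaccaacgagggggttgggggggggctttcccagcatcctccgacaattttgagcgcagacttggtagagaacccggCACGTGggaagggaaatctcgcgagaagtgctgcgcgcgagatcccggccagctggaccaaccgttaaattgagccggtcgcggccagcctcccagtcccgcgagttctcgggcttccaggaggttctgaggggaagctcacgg
Stra8: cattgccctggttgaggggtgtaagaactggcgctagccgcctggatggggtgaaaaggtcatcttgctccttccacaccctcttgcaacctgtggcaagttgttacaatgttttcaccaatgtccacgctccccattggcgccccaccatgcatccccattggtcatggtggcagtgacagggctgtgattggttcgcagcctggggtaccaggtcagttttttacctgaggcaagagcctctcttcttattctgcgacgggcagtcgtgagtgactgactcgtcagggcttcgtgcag
Taf7l: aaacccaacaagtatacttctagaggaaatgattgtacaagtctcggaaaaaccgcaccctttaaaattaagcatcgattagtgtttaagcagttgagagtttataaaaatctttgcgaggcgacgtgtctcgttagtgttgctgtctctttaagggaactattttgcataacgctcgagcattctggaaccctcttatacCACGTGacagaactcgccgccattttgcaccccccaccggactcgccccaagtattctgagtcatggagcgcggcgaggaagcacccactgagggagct
Tuba3a: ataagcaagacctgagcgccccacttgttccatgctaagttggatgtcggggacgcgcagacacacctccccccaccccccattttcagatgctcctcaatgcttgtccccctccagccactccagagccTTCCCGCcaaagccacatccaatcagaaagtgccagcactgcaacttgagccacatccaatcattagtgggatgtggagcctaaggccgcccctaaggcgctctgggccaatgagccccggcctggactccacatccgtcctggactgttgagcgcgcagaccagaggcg
Tuba3b: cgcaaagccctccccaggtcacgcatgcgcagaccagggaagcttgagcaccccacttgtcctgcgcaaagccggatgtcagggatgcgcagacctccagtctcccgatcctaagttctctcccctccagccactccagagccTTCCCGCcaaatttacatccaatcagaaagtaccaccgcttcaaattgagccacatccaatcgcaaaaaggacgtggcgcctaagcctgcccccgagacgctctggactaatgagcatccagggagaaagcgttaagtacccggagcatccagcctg
Smc1b: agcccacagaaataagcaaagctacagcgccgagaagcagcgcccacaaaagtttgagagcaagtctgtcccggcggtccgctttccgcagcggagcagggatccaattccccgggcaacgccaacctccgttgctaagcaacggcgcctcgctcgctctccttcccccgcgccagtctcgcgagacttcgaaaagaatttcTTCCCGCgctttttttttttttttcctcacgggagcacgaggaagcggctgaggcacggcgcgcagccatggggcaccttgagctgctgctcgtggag

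The Sycp1 and Taf7l windows hold an E-box whose first base lies at -94 and -49 from the start. Tuba3a, Tuba3b and Smc1b hold an E2F core at -120, -107 and -48, and the Stra8 window holds neither motif. A window was listed for 33 of the 37 members, all but Tex15, Spo11, Tex11 and Majin. The E2F core was present in 14 of the 33 (42.4%), against 9.49% of the 11588 tested genes with a window and 5.29% of all 27025 genes with one. The E-box was present in 11 of the 33 (33.3%), against 11.5% of the tested genes and 8.09% of all genes. The cyclic AMP response element TGACGTCA was present in 0 of the 33, against 3.47% of the tested genes. None of the 3 motifs contains another, and a match is a description of the letters, not of binding. Among members with a window that were lower in at least 1 clone, 6 of 12 held the E2F core and 6 of 12 the E-box, and among tested members that were lower in neither clone, 7 of 17 held the E2F core and 4 of 17 the E-box. For the E2F core these shares are 50% and 41.2%, and for the E-box 50% and 23.5%.

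**Figure D1:**
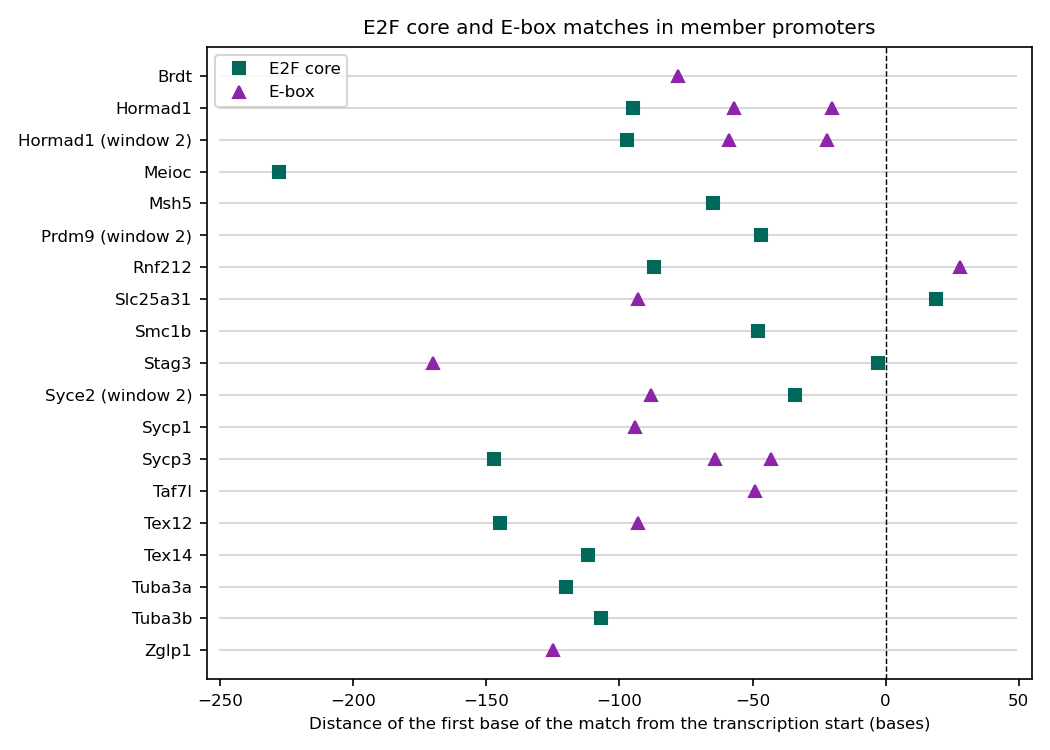
Distance in bases of each E2F core (square) and E-box (triangle) from the annotated transcription start (dashed line) in the 18 members that hold a match, with a row of its own for the second annotated window of a gene. Of the 30 plotted matches 26 begin within the last 150 bases before the start, with the Tuba3a and Tuba3b E2F cores at -120 and -107. The Hormad1 windows overlap, so its E2F core (-95 and -97) and its E-boxes (-57 and -59, -20 and -22) are plotted and counted in both rows.

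In DKO against control, 5 of the 32 tested members fell and 0 rose in the edgeR quasi-likelihood test with Benjamini-Hochberg adjustment over 14771 genes. Over all tested genes 3.62% fell and 5.06% rose. The 5 were Sycp1, Tex15, Stra8, Taf7l and Tuba3a. The median log2 change of the 32 members was -0.38, against 0 over all genes, and 25 of them had an estimate below 0. A median below 0 was not particular to the members. In lists described below it was -0.55 for fibroblast and feeder, -0.54 for gonad soma and -0.43 for lineage markers. It was -0.26 for germ cell identity, 0 for germline repressors, 0.07 for ES cell markers and 0.08 for further meiosis genes. At an unadjusted p under 0.05, 10 members were lower and 4 higher, where 11.3% of all tested genes were lower and 11.9% higher. Neither DESeq2 nor limma-voom called a member higher. All 4 DKO libraries lay below both control libraries in 13 of the 32 members and above both in 3, Stag3, Smc1b and Zglp1, against 16.9% of all tested genes in each direction. With 1 library left out in turn, between 2 and 6 members fell, with 2 when control replicate 2 was omitted and 3 when control replicate 1 was. In all, 103 and 88 of 15213 genes fell under these omissions (0.677% and 0.578%). With counts summed per clone, a fit that leaves 1 residual degree of freedom, 0 members and 2 of all 14771 genes passed in edgeR.

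**Figure D2:**
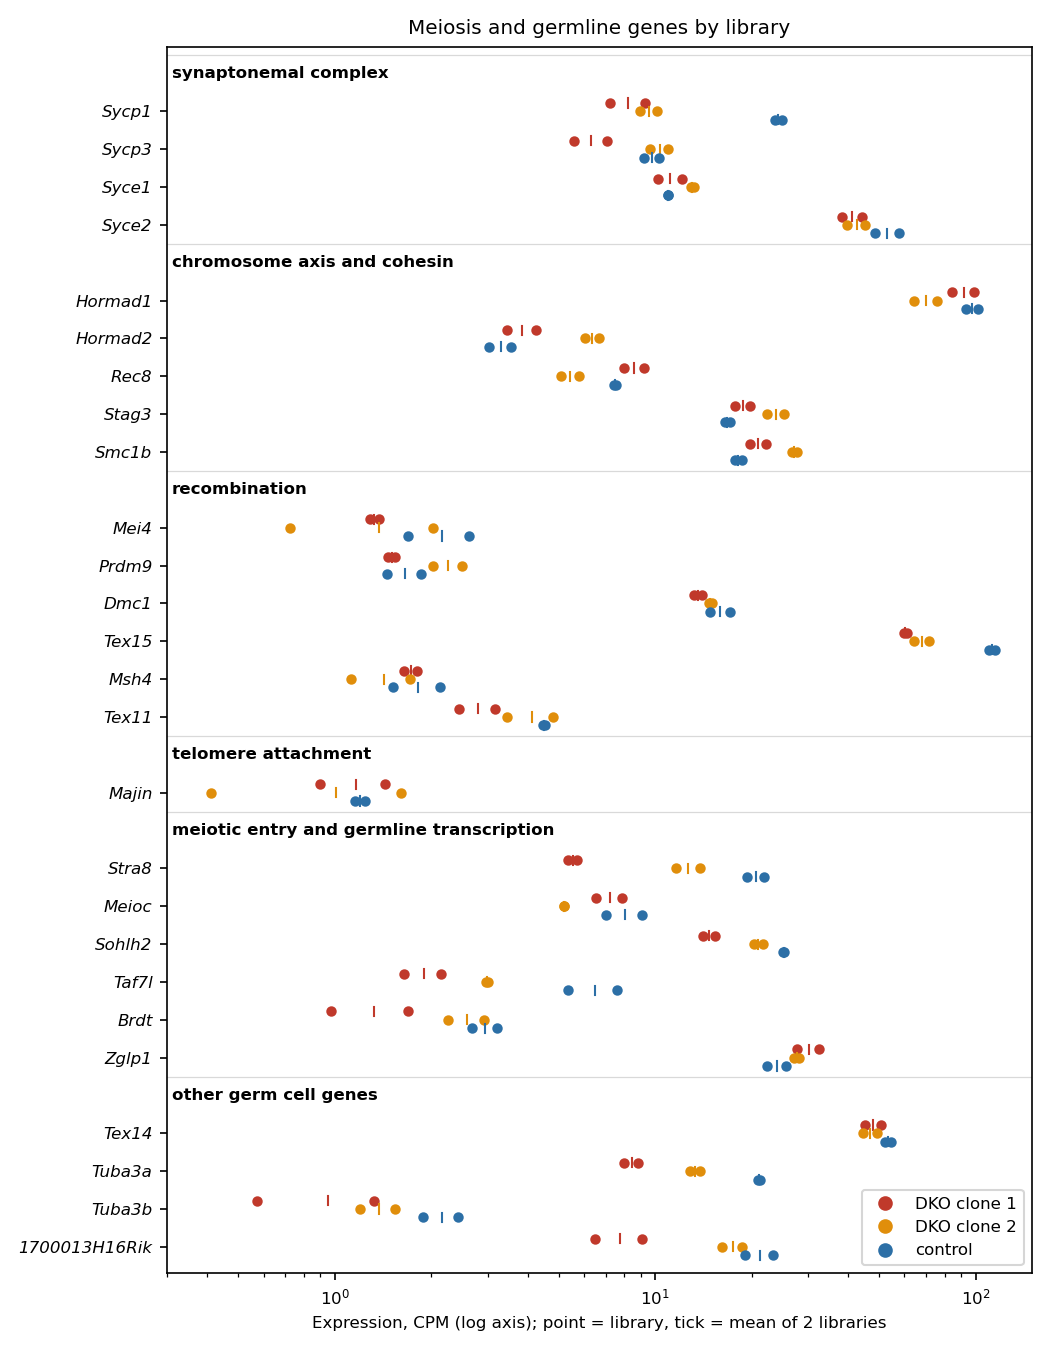
Level in CPM (log axis) of the 26 members that averaged 1 CPM or more or were called in any comparison, grouped by role, with 1 point per library and a tick at the mean of the 2 libraries of a group. In Sycp1, Tex15, Stra8, Taf7l and Tuba3a both red DKO clone 1 points and both orange DKO clone 2 points lie left of the blue control points.

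Of the 6 tested genes of the synaptonemal complex, 1 fell in DKO. This count and those of the other roles below stand beside 3.62% of all tested genes that fell. Sycp1 encodes the transverse filament that spans the gap between the paired axes, and lies at chr3:102818499-102936100 (GRCm38). It had 7.21 and 9.27 CPM in DKO clone 1 and 8.99 and 10.1 CPM in DKO clone 2, against 23.7 and 24.8 CPM in control. The 4 DKO values lay close together and far below both control values, at 36.7% of the control mean. The log2 change was -1.45 ± 0.132 (SE), with an edgeR adjusted p of 0.000644, and it held without any 1 library. Syce2, a protein of the central element, had 38.4 and 44.1 CPM in DKO clone 1 and 45.3 and 39.8 CPM in DKO clone 2, against 48.4 and 57.5 CPM in control. The groups did not overlap, but the log2 change of -0.34 ± 0.1 did not pass (edgeR adjusted p 0.0671). It passed in clone 1 alone, at -0.36 with an adjusted p of 0.0365, and did not without control replicate 2 (0.25) or clone 1 replicate 1 (0.258).

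Sycp3, a protein of the lateral elements, was the synaptonemal complex gene in which the clones stood apart. It had 7.07 and 5.57 CPM in DKO clone 1 and 11 and 9.64 CPM in DKO clone 2, against 10.3 and 9.23 CPM in control. Clone 1 lay below the control, at a log2 change of -0.63 with an edgeR adjusted p of 0.016, and the clone 2 and control values overlapped. Without control replicate 1 or clone 1 replicate 2 the adjusted p in clone 1 was 0.109 or 0.116. Syce1, of the central element, had 10.2 and 12.1 CPM in DKO clone 1 and 12.9 and 13.2 CPM in DKO clone 2, against 11 and 11 CPM in control, with no change that passed. Sycp2 averaged 0.675 CPM in DKO and 0.972 CPM in control, and Tex12, of the central element, averaged 0.237 CPM in DKO and 0.403 CPM in control. Neither passed at these low counts.

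None of the 5 genes of the chromosome axis and of meiotic cohesin passed in DKO against control, and their median log2 change was 0.35. Without adjustment, 3 reached a p under 0.05 upward and 0 downward, where 11.9% and 11.3% of all tested genes did. In clone 2 the change of 3 of them was upward and passed, while 1 fell, beside 7.89% of all tested genes higher and 7.08% lower in clone 2. Smc1b, a meiotic subunit of the cohesin ring, had 22.2 and 19.7 CPM in DKO clone 1 and 26.7 and 27.7 CPM in DKO clone 2, against 18.6 and 17.8 CPM in control. All 4 DKO libraries lay above both control libraries, and the log2 change was 0.58 in clone 2 (edgeR adjusted p 0.00164) and 0.2 in clone 1 (0.214). Stag3, the cohesin subunit that binds the ring in meiosis, had 19.8 and 17.8 CPM in DKO clone 1 and 25.3 and 22.4 CPM in DKO clone 2, against 17.1 and 16.5 CPM in control. Its log2 change in clone 2 was 0.51, with an edgeR adjusted p of 0.00675, which was 0.0894 without clone 2 replicate 1.

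Hormad2, a HORMA domain protein of unpaired axes, had 3.45 and 4.24 CPM in DKO clone 1 and 6.7 and 6.04 CPM in DKO clone 2, against 3.03 and 3.56 CPM in control. Clone 2 stood above the other 4 libraries, at a log2 change of 0.95 against control with an edgeR adjusted p of 0.00373. Its relative Hormad1, which marks the same axes, had 84.7 and 99 CPM in DKO clone 1 and 64.1 and 76 CPM in DKO clone 2, against 102 and 93.1 CPM in control. Here clone 2 was the low group, at a log2 change of -0.48 with an edgeR adjusted p of 0.00452, which was 0.0745 without clone 2 replicate 1. Rec8, the meiotic kleisin subunit of cohesin, had 9.23 and 8.01 CPM in DKO clone 1 and 5.1 and 5.77 CPM in DKO clone 2, against 7.54 and 7.43 CPM in control. It lay above the control in clone 1 and below it in clone 2, and neither change passed (edgeR adjusted p 0.403 and 0.0638).

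Among the 7 tested genes of recombination, Tex15 fell. Tex15 is needed for the repair of meiotic DNA breaks and takes part in silencing transposons in male germ cells, and lies at chr8:33516689-33592503. It had 61.1 and 59.7 CPM in DKO clone 1 and 64.2 and 71.5 CPM in DKO clone 2, against 115 and 110 CPM in control. All 4 DKO libraries were far below the control, at 57% of its mean. The log2 change was -0.81 ± 0.0819 (SE), with an edgeR adjusted p of 0.000792, and it held without any 1 library. Dmc1, the meiotic recombinase that carries out strand exchange, had 13.2 and 14 CPM in DKO clone 1 and 14.7 and 15 CPM in DKO clone 2, against 17.1 and 14.8 CPM in control. Its groups overlapped and the change of -0.17 did not pass (edgeR adjusted p 0.416). Tex11, which acts in crossover formation, had 3.16 and 2.44 CPM in DKO clone 1 and 3.45 and 4.8 CPM in DKO clone 2, against 4.48 and 4.52 CPM in control. It passed only just in clone 1 (log2 change -0.68, edgeR adjusted p 0.0496) and failed in 10 of 13 alternatives, with adjusted p between 0.0106 and 0.236. The adjusted p was 0.145 and 0.148 when control replicate 1 or 2 was left out, and 0.0629 and 0.236 when clone 1 replicate 1 or 2 was.

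The other tested recombination genes were low. Prdm9, the histone methyltransferase that places recombination hotspots, had 1.54 and 1.47 CPM in DKO clone 1 and 2.49 and 2.02 CPM in DKO clone 2, against 1.46 and 1.86 CPM in control. Mei4, needed for the DNA breaks, had 1.29 and 1.37 CPM in DKO clone 1 and 0.723 and 2.02 CPM in DKO clone 2, against 1.69 and 2.63 CPM in control. Msh4, which with Msh5 stabilises recombination intermediates, had 1.65 and 1.8 CPM in DKO clone 1 and 1.12 and 1.72 CPM in DKO clone 2, against 2.13 and 1.52 CPM in control. In all 3 genes the groups overlapped and no change passed, and Msh5 averaged 0.353 CPM in DKO and 0.322 CPM in control. The telomere attachment proteins Majin and Terb1 tether chromosome ends to the nuclear envelope in meiosis. Majin had 1.44 and 0.898 CPM in DKO clone 1 and 1.61 and 0.412 CPM in DKO clone 2, against 1.16 and 1.24 CPM in control, so that the replicates of clone 2 stood further apart than the groups. Terb1 averaged 0.665 ± 0.261 CPM in DKO (SD, n = 4) and 1.29 ± 0.113 CPM in control (SD, n = 2), without overlap and without passing the test (edgeR adjusted p 0.152).

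Of the 6 tested genes of meiotic entry and germline transcription, 2 fell in DKO. Stra8, which answers to retinoic acid and starts the meiotic programme, lies at chr6:34920163-34939344. It had 5.71 and 5.35 CPM in DKO clone 1 and 13.8 and 11.6 CPM in DKO clone 2, against 21.9 and 19.4 CPM in control. The 3 groups formed 3 separate levels, with clone 1 at 26.8% and clone 2 at 61.3% of the control mean. Against the control the log2 change was -1.9 ± 0.139 in clone 1 (edgeR adjusted p 2.49e-06) and -0.71 ± 0.13 in clone 2 (0.00228). With the 4 DKO libraries pooled it was -1.19 ± 0.315 with an edgeR adjusted p of 0.0426. That pooled result failed in 7 of 14 alternatives, with adjusted p between 0.00525 and 0.44, while both results by clone passed in all 13. The pooled adjusted p was 0.275 and 0.193 when control replicate 1 or 2 was left out, and 0.0597 and 0.0558 when clone 1 replicate 1 or 2 was.

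Taf7l is the germ cell relative of the TFIID subunit Taf7 and lies at chrX:134460116-134476505. It had 2.15 and 1.65 CPM in DKO clone 1 and 2.97 and 3 CPM in DKO clone 2, against 5.36 and 7.59 CPM in control. All DKO libraries lay below both control libraries, at 37.8% of the control mean. The log2 change was -1.41 ± 0.247 (SE) with an edgeR adjusted p of 0.00627, and the adjusted p was 0.125 without control replicate 2, in a range of 1.65e-05 to 0.258 over 14 alternatives. Leaving out that library also ended its call in clone 2 (0.0579). Sohlh2, a transcription factor of early germ cells, had 15.4 and 14.1 CPM in DKO clone 1 and 21.7 and 20.3 CPM in DKO clone 2, against 25.3 and 25.1 CPM in control. As in Stra8, the groups formed 3 levels without overlap. The log2 change was -0.77 in clone 1 (edgeR adjusted p 0.000253) and -0.26 in clone 2 (0.104). Brdt, a bromodomain protein of male germ cells, had 1.69 and 0.97 CPM in DKO clone 1 and 2.93 and 2.25 CPM in DKO clone 2, against 2.68 and 3.22 CPM in control. It fell in clone 1 (log2 change -1.15, edgeR adjusted p 0.0177), which did not pass without control replicate 2 (0.108) or clone 1 replicate 2 (0.133), and the difference between the clones did not pass (0.0839).

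Meioc, which keeps germ cells in meiotic prophase, had 7.9 and 6.54 CPM in DKO clone 1 and 5.18 and 5.21 CPM in DKO clone 2, against 9.11 and 7 CPM in control. Clone 2 lay below the other 4 libraries, at a log2 change of -0.63 against control with an edgeR adjusted p of 0.027. The adjusted p was 0.203 without control replicate 1, 0.115 without clone 2 replicate 1 and 0.119 without clone 2 replicate 2. Zglp1, a zinc finger factor of the oogenic programme, had 32.5 and 27.8 CPM in DKO clone 1 and 27.2 and 28.2 CPM in DKO clone 2, against 22.3 and 25.6 CPM in control. All DKO libraries lay above both control libraries, but the change of 0.28 did not pass (edgeR adjusted p 0.147). Its counts are uncertain, because 92.1% of the 50-base stretches of its transcripts also occur in transcripts of Gm49373, an annotated gene that overlaps it on the same strand.

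Of the 6 remaining germ cell genes, Tuba3a fell. Tuba3a and Tuba3b encode alpha tubulins that are abundant in the testis, at chr6:125278270-125286081 and chr6:145615963-145621477. Tuba3a had 8.87 and 8.01 CPM in DKO clone 1 and 12.8 and 13.8 CPM in DKO clone 2, against 21.2 and 21 CPM in control. The 3 groups again formed 3 levels without overlap, with clone 1 at 40% and clone 2 at 62.9% of the control mean. The pooled log2 change was -0.96 ± 0.194 (SE) with an edgeR adjusted p of 0.0126, which was 0.131 or 0.115 when control replicate 1 or 2 was left out, in a range of 3.84e-05 to 0.335 over 14 alternatives. Tuba3b had 0.574 and 1.33 CPM in DKO clone 1 and 1.2 and 1.54 CPM in DKO clone 2, against 1.89 and 2.42 CPM in control. It lay below the control in all DKO libraries and passed in clone 1 only just (log2 change -1.17, edgeR adjusted p 0.0488), with adjusted p between 0.00378 and 0.325 over 13 alternatives. Leaving out control replicate 1 gave 0.086, control replicate 2 gave 0.211, clone 1 replicate 1 gave 0.325, clone 2 replicate 1 gave 0.0569 and clone 2 replicate 2 gave 0.0531. The pair shares reads as annotated, since 32.4% of the 50-base stretches of Tuba3a transcripts occur in Tuba3b and 27.4% of those of Tuba3b occur in Tuba3a, so the split of counts between them is uncertain. Their promoter lines above also share the letters on both sides of the E2F core.

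1700013H16Rik, an X-linked gene named here without a role, had 181 and 253 reads in DKO clone 1 and 403 and 499 reads in DKO clone 2, against 656 and 755 reads in control. Scaled for depth, it averaged 7.79 ± 1.83 CPM in clone 1 and 17.4 ± 1.79 CPM in clone 2, against 21.2 ± 3.03 CPM in control (SD, n = 2 each). Clone 1 was far below the control (log2 change -1.45, edgeR adjusted p 8.11e-05), and clone 2 lay just under it without passing (-0.28, 0.246). Tex14, a protein of the bridges between germ cells, had 50.8 and 45.2 CPM in DKO clone 1 and 49.1 and 44.6 CPM in DKO clone 2, against 52.1 and 54.4 CPM in control. All DKO libraries were below the control by a small margin, and the change of -0.17 did not pass (edgeR adjusted p 0.257). Tex101, a surface protein of germ cells, averaged 0.273 RPKM in DKO and 0.501 RPKM in control, and Slc25a31, an ADP/ATP carrier of the testis, averaged 0.317 RPKM in DKO and 0.587 RPKM in control. Neither passed at these low counts.

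Set against the control one at a time, the clones differed in which members passed. In clone 1, 12 of the 32 tested members fell and 0 rose, with 6.47% of all tested genes lower and 8.79% higher. In clone 1, 1 member, Zglp1, was higher at an unadjusted p under 0.05, as were 15% of all tested genes. Its edgeR adjusted p was 0.0515, and DESeq2 and limma-voom called 0 members higher. In edgeR Zglp1 passed with library size scaling (adjusted p 0.0494), without a filter (0.0248) and with each chromosome centred (0.0443). In clone 2, 7 members fell and 3 rose, with 7.08% of all genes lower and 7.89% higher. The median log2 change of the members was -0.55 in clone 1 and -0.3 in clone 2. Sycp1, Tex15, Stra8, Taf7l and Tuba3a passed in both clones, and these comparisons share the control libraries. A further 15 tested members passed in neither clone.

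**Figure D3:**
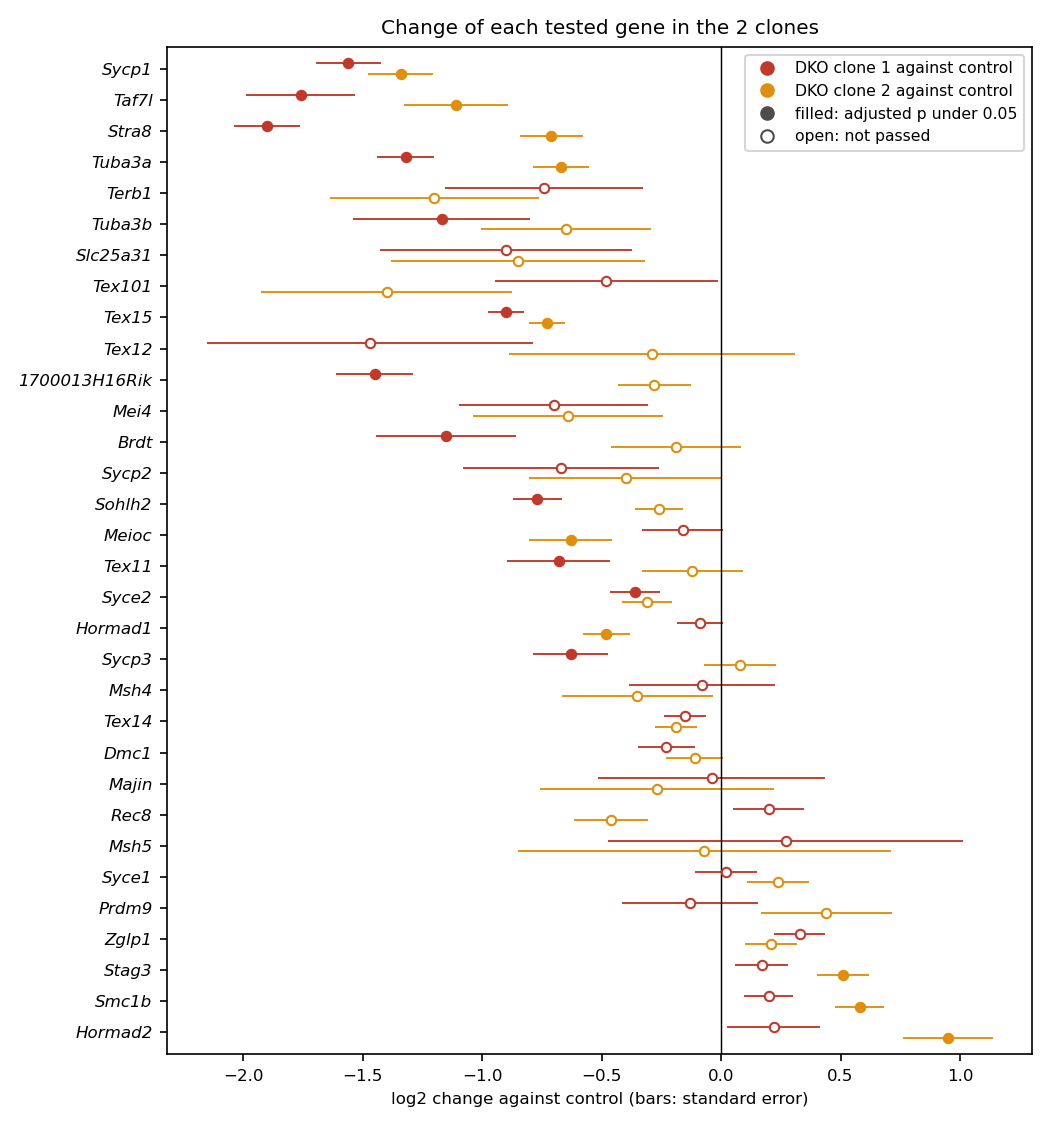
Log2 change against control of the 32 tested members in DKO clone 1 (red) and DKO clone 2 (orange), with bars of 1 standard error and filled points where the edgeR adjusted p was under 0.05. Both points are filled and left of 0 for Sycp1, Taf7l, Stra8, Tuba3a and Tex15, and the filled points right of 0 are the clone 2 points of Hormad2, Smc1b and Stag3.

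The difference between the clones was tested directly. In clone 2 against clone 1, 7 members were higher and 2 lower, against 2.53% and 3.77% of all tested genes. Among the members that passed, the largest differences were in Stra8 and 1700013H16Rik, both higher in clone 2. Stra8 averaged 12.7 ± 1.54 CPM in clone 2 and 5.53 ± 0.251 CPM in clone 1 (SD, n = 2 each), a log2 difference of 1.2 with an edgeR adjusted p of 0.00048. 1700013H16Rik averaged 17.4 ± 1.79 CPM in clone 2 and 7.79 ± 1.83 CPM in clone 1 (SD, n = 2 each), a log2 difference of 1.16 with an edgeR adjusted p of 0.0014. Both passed in all 13 alternatives. Tuba3a differed by 0.65 (edgeR adjusted p 0.00799) and Sohlh2 by 0.51 (0.0128), again higher in clone 2. The Tuba3a difference did not pass without clone 2 replicate 2 (0.0807), nor that of Sohlh2 without clone 1 replicate 2 (0.0714), clone 2 replicate 1 (0.113) or clone 2 replicate 2 (0.0544). Sycp1 and Tex15, by contrast, differed between the clones by 0.21 and 0.17, which did not pass (edgeR adjusted p 0.442 and 0.242).

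A further 5 members passed between the clones, each with a call that depended on the libraries included. Sycp3 was higher in clone 2 by 0.7 (edgeR adjusted p 0.0201), Hormad2 by 0.73 (0.0359) and Smc1b by 0.38 (0.0443). Rec8 had a log2 difference of -0.66 and Hormad1 one of -0.39, both lower in clone 2, with edgeR adjusted p of 0.0236 and 0.0317. Over 13 alternatives the log2 difference was 0.54 to 0.88 for Sycp3, 0.59 to 0.88 for Hormad2 and 0.29 to 0.46 for Smc1b. The same range was -0.76 to -0.56 for Rec8 and -0.52 to -0.2 for Hormad1. Of these 13 alternatives, Sycp3 and Hormad1 failed in 3 each, Rec8 in 4, Hormad2 in 6 and Smc1b in 8.

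Chromosomes 3 and 6 hold 9 of the 37 members, 8 of them tested, and on both the members' changes stood against a shifted background. On chromosome 6 the median log2 change of 709 genes was 0.44 in clone 1 and 0.51 in clone 2. On chromosome 3 the median of 701 genes was 0.28 in clone 1 and 0.08 in clone 2. When every chromosome was centred at its median, the DKO log2 change was -1.67 for Stra8 (edgeR adjusted p 0.0109), -1.44 for Tuba3a (0.00224), -1.36 for Tuba3b (0.0436), -1.62 for Sycp1 (0.000823) and -0.46 for Hormad1 (0.0335). The number of members that fell in DKO was then 7, and 0 rose. In clone 1 alone, Hormad1 also passed after centring, at -0.37 (edgeR adjusted p 0.0343). Over all genes the same centring gave 447 lower and 329 higher, against 535 lower and 748 higher on 1 scale. Between the clones, centring left 5 members higher and 0 lower in clone 2, and the Hormad1 difference was -0.2 (edgeR adjusted p 0.306). Over all 14771 tested genes, 319 were then higher and 406 lower in clone 2, against 373 and 557 on 1 scale. The cause of the shift of these chromosomes was not tested.

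**Figure D4:**
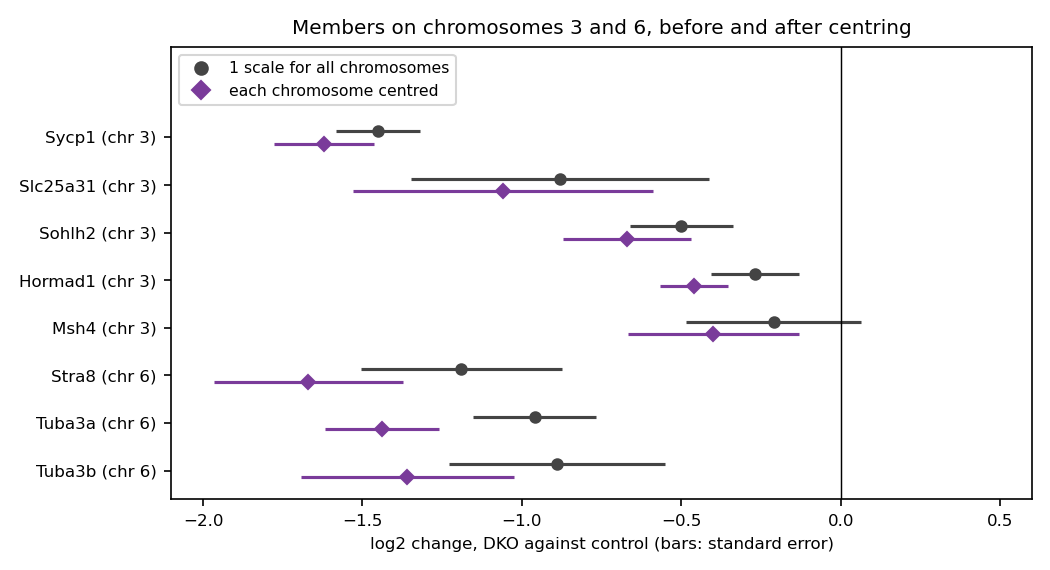
DKO against control log2 change of the 8 tested members on chromosomes 3 and 6, with bars of 1 standard error, on 1 scale for all chromosomes (grey circle) and after centring every chromosome at its median (purple diamond). Every diamond lies left of its circle, with Stra8 at -1.67 against -1.19 and Sycp1 at -1.62 against -1.45.

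The genes next to the 5 members that fell in DKO were counted beside all tested genes, of which 3.62% fell and 5.06% rose. Within 200 kb, a distance chosen after the data were seen, Sycp1 had 6 tested neighbours and Tex15 had 8, and none passed the edgeR test. Taf7l had 8 tested neighbours, of which Tmem35a fell. Stra8 had 5, of which Cnot4 and Wdr91 rose, and Tuba3a had 16, of which 7 rose, among them Gapdh and Cd9. The median log2 change of the neighbours was 0.16 at Sycp1, 0.02 at Tex15, 0.49 at Stra8, 0.05 at Taf7l and 0.52 at Tuba3a. The values at Stra8 and Tuba3a are near the chromosome 6 median of 0.48, and that at Sycp1 is near the chromosome 3 median of 0.18.

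Overlapping transcripts could share reads with some members, since the sources used here do not say which strand was counted. Of the 50-base stretches of Sycp3 transcripts, 43% also occur in Chpt1, which overlaps Sycp3 on the opposite strand. Chpt1 had 14.4 and 14.5 CPM in DKO clone 1 and 20.2 and 19 CPM in DKO clone 2, against 21.4 and 19.4 CPM in control. Its log2 change was -0.5 in clone 1 (edgeR adjusted p 0.0071), and the clones differed by 0.44 (0.0314), the same order as in Sycp3. Its part in the Sycp3 counts was not tested. In the GENCODE annotation Tuba3a is overlapped on the opposite strand by 4930417O13Rik. By RefSeq that gene lies at chr6:125265525-125273777, outside the span of Tuba3a, so an overlap depends on the annotation. 4930417O13Rik averaged 0.238 RPKM in DKO and 0.458 RPKM in control, where Tuba3a averaged 7.2 RPKM in DKO and 14 RPKM in control. Sycp1 shared 5.47% of its stretches with other genes, most of them with the pseudogene Sycp1-ps1, which had 2 to 12 reads in a library. Hormad1 shared 22.9%, mostly with Gm15529, and Tex15, Stra8 and Taf7l shared none.

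Other genes of the same pathways were counted from lists chosen by name, beside all tested genes, of which 3.62% fell and 5.06% rose in DKO. These lists too were drawn up with earlier results of these data known, so their counts are not independent of the data. Of 32 further tested meiosis genes, 3 fell and 2 rose in DKO, with a median log2 change of 0.08. In clone 1 alone 4 of them fell and 6 rose, beside 6.47% of all tested genes lower and 8.79% higher. In clone 2 alone 3 fell and 3 rose, beside 7.08% lower and 7.89% higher. The one-sided fall of the members in clone 1 was thus not seen in this list. The 3 that fell in DKO were 4930447C04Rik (Six6os1), a central element protein of the synaptonemal complex, Zcwpw1, a reader of the marks that Prdm9 places, and Cpeb1, an RNA-binding protein of oocyte translation. 4930447C04Rik had 12.5 and 15.7 CPM in DKO clone 1 and 14.5 and 17.9 CPM in DKO clone 2, against 31.8 and 26.7 CPM in control. Like Sycp1 it lay below the control in all DKO libraries, at a log2 change of -0.95 with an edgeR adjusted p of 0.00246, which was 0.0668 without control replicate 1. Zcwpw1 averaged 7.53 ± 0.768 CPM in DKO (SD, n = 4) and 12.2 ± 0.239 CPM in control (SD, n = 2), at a log2 change of -0.7 (edgeR adjusted p 0.00884; 0.0941 and 0.103 without either control library). Cpeb1 averaged 0.769 ± 0.154 CPM in DKO and 2.2 ± 0.307 CPM in control, at a log2 change of -1.51 (edgeR adjusted p 0.00757; 0.121 and 0.056 without either control library). Those that rose were 4930432K21Rik (Brme1), a partner of the recombination machinery, at 10 ± 0.29 CPM in DKO and 6.57 ± 0.221 CPM in control, and Ccnb1ip1, a crossover ligase, at 755 ± 114 CPM in DKO and 554 ± 7.83 CPM in control (log2 change 0.45, edgeR adjusted p 0.038, not run under the alternatives). The 4930432K21Rik change was 0.61 with an edgeR adjusted p of 0.0134, and 0.11 and 0.135 without either control library.

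Among 19 tested genes of germ cell identity, 2 fell and 1 rose in DKO, with a median log2 change of -0.26. The shares over all tested genes, 3.62% lower and 5.06% higher, also stand beside this list and the list of repressors below. Ddx4, an RNA helicase of germ cells, had 9.87 and 8.76 CPM in DKO clone 1 and 7.63 and 8.44 CPM in DKO clone 2, against 16.1 and 18.7 CPM in control. All DKO libraries lay far below the control, at a log2 change of -1 with an edgeR adjusted p of 0.00151, and this held without any 1 library. Dazl, an RNA-binding protein that licenses germ cells for meiosis, had 86.8 and 80 CPM in DKO clone 1 and 59.3 and 63 CPM in DKO clone 2, against 117 and 104 CPM in control. It formed 3 levels with clone 2 lowest, at a DKO log2 change of -0.61 (edgeR adjusted p 0.0217; 0.23 and 0.109 without control replicate 1 and 2). Kit, the stem cell factor receptor, averaged 235 ± 5.62 CPM in DKO and 189 ± 3.1 CPM in control, at 0.32 (edgeR adjusted p 0.00921; 0.0955 and 0.111 without control replicate 1 and 2). Of 24 tested genes that repress the germline programme, Yaf2 fell and Rybp rose, both of them subunits of Polycomb complexes, and the median was 0. Yaf2 averaged 6.34 ± 0.323 CPM in DKO and 10.7 ± 0.765 CPM in control (log2 change -0.75, edgeR adjusted p 0.00527; 0.0525 and 0.0897 without control replicate 1 and 2). Rybp, on chromosome 6, averaged 110 ± 7.36 CPM in DKO and 89.8 ± 2 CPM in control (0.29, edgeR adjusted p 0.0455), and its sign turned to -0.18 with each chromosome centred. The Rybp call failed in 8 of 14 alternatives, with adjusted p of 0.211 and 0.274 without control replicate 1 or 2, 0.0849 and 0.0972 without clone 1 replicate 1 or 2, and 0.0734 without clone 2 replicate 1.

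Markers of other cells were measured beside the members. The summed level of 13 Sertoli cell and gonad soma markers was 27.89 to 37.9 CPM in DKO libraries and 48.04 to 51.64 CPM in control libraries. Of these markers Dmrt1, which germ cells also express, and Inhbb fell, while 8 of the 13, Sox9, Amh and Wt1 among them, were under 1 CPM in all 6 libraries and Hsd3b1 was at 0. Dmrt1 averaged 11.2 ± 2.22 CPM in DKO and 25.7 ± 4.42 CPM in control, which made up most of the difference in the sum. Star went the other way without passing, at 12.1 ± 2.55 CPM in DKO and 10.6 ± 1.74 CPM in control. Of the 7 tested markers of this list, 6 had an estimate below 0 and 1 above, with a median log2 change of -0.54. The 17 fibroblast and feeder markers summed to 1156 to 1279 CPM in DKO and 1171 to 1206 CPM in control, and most of that sum was Fn1 and Sparc. Of the 17, Acta2 (edgeR adjusted p 0.00629) and Twist1 (0.0216) fell in DKO and Fbln2 (0.0323) rose, and the median log2 change of the 11 tested was -0.55. Tagln did not pass in DKO (0.0559) but was lower in clone 1 (log2 change -0.54, edgeR adjusted p 0.0119) and in clone 2 (-1.49, 1.67e-05). Fbln2 was higher in clone 1 (1.14, 0.0109) and in clone 2 (0.95, 0.0326). Acta2 averaged 1.6 ± 0.752 CPM in DKO (SD, n = 4) and 6.02 ± 1.26 CPM in control (SD, n = 2), and Col1a2, Col3a1, Postn, Dcn, Lum and S100a4 were under 1 CPM in all libraries. The 10 lineage markers summed to 47.17 to 52.59 CPM in DKO and 48.73 to 51.08 CPM in control. In DKO against control 0 of the 9 tested passed, and their median log2 change was -0.43. By clone, Eomes was higher in clone 1 (log2 change 0.48, edgeR adjusted p 0.0318) and in clone 2 (1.27, 4.15e-05). Sox1 was lower in clone 2 (-1.11, edgeR adjusted p 0.000371), so the sum hides changes in opposite directions. The part of other cells in the changes of the members was not tested.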

How the data were processed

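The deposited table holds unnormalised read counts, 1 row per Entrez gene, and the gene's width; the counts were checked to be whole numbers. Per the submitters' processing notes, reads were aligned with STAR 2.5.0a to mm10 (GRCm38). The counting tool, annotation release and strand: not given in the sources used here. RNA came from RNeasy columns and libraries from the ScriptSeq v2 kit, per the labels' protocols. Symbols and positions came from the RefSeq table on GRCm38.p6, which matched 24437 IDs, and the 30 others took 0.389 to 1.62% of reads.

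The analysis used edgeR 4.0.16 in R 4.3.3. Its filterByExpr with the 3 groups left 14771 genes, and TMM factors were 0.992 to 1.01. Changes were tested with the two-sided quasi-likelihood F test, adjusted by Benjamini and Hochberg over all tested genes at 0.05. DKO against control used a genotype fit (4 residual degrees of freedom), and the clone contrasts a fit of 3 groups (3). SEs came from the F statistic. RPKM used the deposited width. The fits were tested on simulated data. Replicates of a clone were not parts of 1 library (chi-square per gene 11.5 in DKO clone 1, 12.1 in DKO clone 2 and 41.6 in control). By this measure the control pair, which every contrast with control shares, differed most.

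Alternatives were RLE and library size scaling, no filter, DESeq2 1.42.0, limma-voom (limma 3.58.1), a replicate block, each chromosome centred, counts summed per clone and leaving out each library. Members averaging at least 1 CPM or called in any comparison were named with values, and at most 6 others for scale. Of each other list, up to 4 genes with the smallest adjusted p were named. Ccnb1ip1, Dmrt1, Inhbb, Star, the fibroblast, lineage and ES cell markers and the neighbouring and overlapping genes were named after their values were seen. Roles were assigned by hand. Members and lists were chosen with earlier results of these data known.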

Additional observations from a re-analysis of the deposited data

Results flagged for a closer look

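A direct test of the difference between the clones marked 9 members whose change against the shared control differed between clone 2 and clone 1. Higher in clone 2 were Stra8 (log2 difference 1.2), 1700013H16Rik (1.16), Hormad2 (0.73), Sycp3 (0.7), Tuba3a (0.65), Sohlh2 (0.51) and Smc1b (0.38), and lower in clone 2 were Rec8 (-0.66) and Hormad1 (-0.39). Their edgeR adjusted p ran between 0.00048 for Stra8 and 0.0443 for Smc1b. Stra8 and 1700013H16Rik passed in all 13 alternatives and Smc1b failed in 8 of them. With 2 libraries per clone, no single clone was large enough to look for a library far from the rest. Across the 4 DKO libraries none stood out for a named member. These come from 2 clones, and where the clones differ a single library could hardly stand out, so the search decides nothing for those members.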

How the results depend on the processing

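Each group holds 2 libraries, and the fits leave 4 or 3 residual degrees of freedom per gene. The quasi-likelihood test adds to these by sharing the estimate of the spread across genes, so small p-values depend on that sharing. Sycp1 and Tex15 kept their fall in DKO in 13 of 14 alternatives, with counts summed per clone as the exception (edgeR adjusted p 0.215 each). With counts summed per clone 0 members fell in DKO. The DKO median of the members was -0.44 without a filter and -0.43 with each chromosome centred. In clone 1 the median was -0.68 without a filter, and 1 member, Zglp1, rose with library size scaling, without a filter and with each chromosome centred. With centring, 0 members were lower in clone 2 than in clone 1, beside 406 of all 14771 tested genes. Rybp turned to -0.18 in DKO, -0.08 in clone 1 and -0.3 in clone 2. The causes were not tested.

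Leaving out each library in turn gave 2 to 6 members lower and 0 to 1 higher in DKO, with medians of -0.44 to -0.37. In clone 1 it gave 8 to 11 lower and 0 to 1 higher (medians -0.55 to -0.39), and in clone 2 it gave 5 to 7 lower and 2 to 3 higher (medians -0.37 to -0.3). Clone 2 against clone 1 gave 2 to 6 higher and 0 to 2 lower (medians 0.17 to 0.28).

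The replicate numbers of the labels do not pair the libraries, with correlations of same-numbered deviations of 0.028, -0.0834 and 0.026. The replicate block left 4 members lower in DKO, without Stra8 (edgeR adjusted p 0.075), and over all genes 373 lower and 555 higher.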
